A study of Rattus norvegicus with 19 samples.

Results

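Genes for voltage-gated sodium channels, voltage-gated calcium channels, pacemaker (HCN) channels, transient receptor potential (TRP) channels and acid-sensing channels (ASIC) were followed in the paraventricular nucleus (PVN) and supraoptic nucleus (SON) of the rat. Members were all genes whose symbol starts with Scn and a digit, Cacna, Cacnb, Cacng, Hcn and a digit, Trpv, Trpm, Trpc or Asic, and whose probe set carried a single symbol. This rule gave 60 genes on 85 probe sets, of 14217 genes on 20826 probe sets in all. A gene with several probe sets was represented by the one with the highest mean log2 signal. The symbol rule also took in Trpc4ap, which encodes a protein that associates with a TRP channel and forms no pore itself.

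RNA came from untreated male inbred Spontaneously Hypertensive rats (SHR/NHsd, SHR) and normotensive Wistar Kyoto rats (WKY/NHsd, WKY), labelled as 12 weeks old, whose nuclei had been dissected by hand from hypothalamic slices. The arrays numbered 5 for PVN of WKY, 5 for PVN of SHR, 5 for SON of WKY and 4 for SON of SHR, and the study's wording on pooling was taken to mean that nuclei were pooled for each array. If each array was such a pool, the p-values measure the spread between pools, which may be partly technical, and the number of arrays limits the precision. SHR and WKY are separate inbred strains, so a difference between them cannot be told apart from any other difference in genetic background. Values are log2 signals after each array was centred on its median, with signals under 3.76 (log2 1.91, the 10th percentile) set to that floor. A gene was called when its Benjamini-Hochberg adjusted p in limma, over all probe sets tested, was under 0.05. All tests were two-sided, and each adjusted p given here is limma's unless another test is named. The methods' t-test is the study's own unequal-variance test run on the same values, and the replicate block treats arrays of the same number as a matched set. Signals of different probe sets are not comparable as levels, so each gene was compared only with itself.

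Voltage-gated sodium channels are built from a pore-forming alpha subunit (Scn1a to Scn11a) and beta subunits (Scn2b to Scn4b here) that modify gating and placement, and they carry the upstroke of the action potential. Calcium channels have a pore-forming alpha1 subunit (Cacna1 genes) that is trafficked and tuned by alpha2delta (Cacna2d), beta (Cacnb) and gamma (Cacng) subunits. HCN channels carry a depolarising current on hyperpolarisation, and TRP and ASIC channels respond to osmotic, mechanical, thermal, lipid or acid stimuli. In the magnocellular neurones of the PVN and SON, the spike pattern set by such channels governs the release of vasopressin and oxytocin, and the PVN also holds parvocellular and presympathetic neurones.

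More of these genes were called between nuclei than between strains, as over the whole array. Of the 32 members bright enough to be tested in the fit of all 4 groups, 19 (59.4%) were called between SON and PVN in at least 1 strain, against 37.5% of all probe sets tested. Members count only the brightest probe set of a gene, while the whole-array shares here and below count every probe set, so the units differ. The leading genes were Scn7a, Cacna2d3, Asic2, Scn9a and Scn3b, lower in the SON, and Cacng3 and Cacna2d1, higher in the SON. Between SHR and WKY, 0 members were called in the PVN and 1, Cacng3, in the SON, where 2.33% of all probe sets were also called lower in SHR.

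Upstream sequences are shown for 3 genes lower in the SON in both strains (Scn7a, Cacna2d3 and Asic2) and for Cacng3, called between strains and between nuclei, with Scn9a as the direct neighbour of Scn7a. Each run below is the 250 bases before an annotated start in RefSeq (build GRCr8), read along the gene's own strand from 5′ to 3′, and the capitals mark matches on either strand to the letters TATAAA, to the letters CCAAT or to the letters GGGCGG. For Asic2, which has a second annotated start, the run before the first is shown.
Scn7a (chr3:71846285-71846534, minus strand): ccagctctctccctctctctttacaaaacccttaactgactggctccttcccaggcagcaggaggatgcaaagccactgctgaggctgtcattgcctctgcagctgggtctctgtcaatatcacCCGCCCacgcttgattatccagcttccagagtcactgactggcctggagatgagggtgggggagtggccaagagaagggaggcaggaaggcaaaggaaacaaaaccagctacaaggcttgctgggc
Scn9a (chr3:71701378-71701627, minus strand): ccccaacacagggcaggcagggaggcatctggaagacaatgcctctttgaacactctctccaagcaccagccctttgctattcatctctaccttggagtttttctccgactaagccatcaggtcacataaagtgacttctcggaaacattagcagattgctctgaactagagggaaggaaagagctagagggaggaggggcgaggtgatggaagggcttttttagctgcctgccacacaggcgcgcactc
Cacna2d3 (chr16:4918900-4919149, minus strand): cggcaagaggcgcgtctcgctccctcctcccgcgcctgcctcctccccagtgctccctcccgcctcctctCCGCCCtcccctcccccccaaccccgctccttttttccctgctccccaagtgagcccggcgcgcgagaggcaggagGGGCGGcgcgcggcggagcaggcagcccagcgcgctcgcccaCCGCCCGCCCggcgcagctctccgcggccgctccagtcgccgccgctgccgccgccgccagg
Asic2 (chr10:67438238-67438487, minus strand): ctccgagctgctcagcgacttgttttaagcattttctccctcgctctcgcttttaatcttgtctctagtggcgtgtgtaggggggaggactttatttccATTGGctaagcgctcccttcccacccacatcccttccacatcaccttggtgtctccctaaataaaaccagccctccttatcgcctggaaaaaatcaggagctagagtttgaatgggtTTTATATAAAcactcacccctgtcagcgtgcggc
Cacng3 (chr1:186632312-186632561, plus strand): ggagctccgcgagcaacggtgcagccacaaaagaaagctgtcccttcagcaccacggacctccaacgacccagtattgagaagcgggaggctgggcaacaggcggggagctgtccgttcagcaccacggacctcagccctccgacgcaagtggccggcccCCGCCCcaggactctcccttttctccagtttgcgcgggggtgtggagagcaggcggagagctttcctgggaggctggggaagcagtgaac

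Promoters were found for 46 of the 60 members, giving 51 starts. The searched letters GGGCGG were in 41.2% of the member promoters and in 30.5% of all 33465 promoters, and CCAAT was in 19.6% and 34%. TATAAA was in 7.84% against 12.9%. The palindrome TGACGTCA was in 0 of the 51 against 1.59%, and TGACTCA in 0 of the 51 against 4.05%. The run before Scn9a held none of the searched letters. The runs of Scn7a, Cacng3 and Cacna2d3 held GGGCGG, and that of Asic2 held overlapping matches to TATAAA and a match to CCAAT. Their GC content was 56% for Scn7a, 52.4% for Scn9a, 78.8% for Cacna2d3, 49.6% for Asic2 and 64.8% for Cacng3, against a median of 51.2% over all promoters. The run before the second Asic2 start, which is not shown, held GGGCGG and none of the other searched letters, with a GC content of 78.8%. These matches describe the letters in the window only.

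Not every member could be tested. A probe set entered a fit if any group's mean was at or above the median probe-set mean, which was 5.32 in the fit of all 4 groups. In that fit 32 members passed, 28 of them in all 4 groups and 4 in some groups only, which favours a difference for those 4. The PVN fit held 32 members, the SON fit 30, and 28 members entered no fit. Hcn4 lay at the floor on all 19 arrays, and 8 members lay there on at least 10 arrays. The group means of all 60 members show the 28 untested genes below the threshold line.

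**Figure D1:**
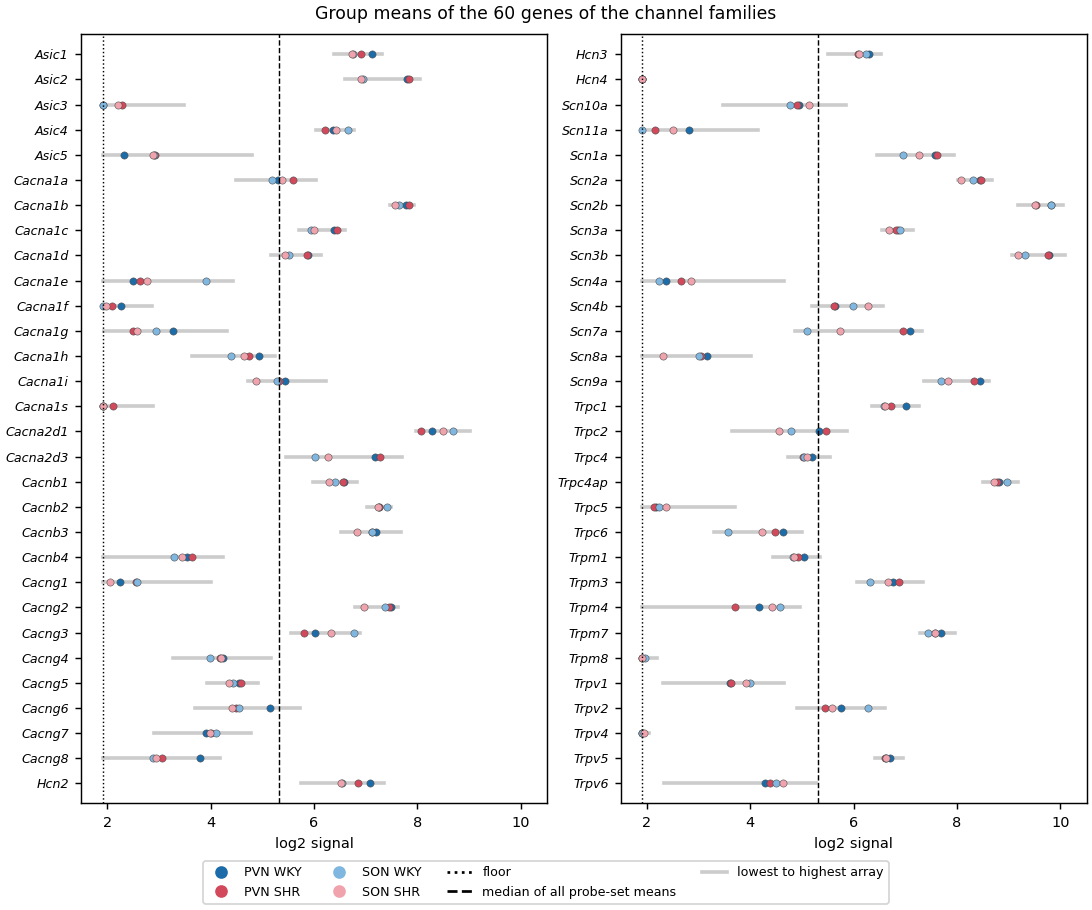
Group means (points) and the range from the lowest to the highest array (grey bar) of the 60 genes, as log2 signal on the horizontal axis; the dotted line is the floor at 1.91 and the dashed line the median of all probe-set means. Rows are different probe sets and cannot be ranked against each other; Scn7a, Asic2 and Cacna2d3 are among the rows whose PVN and SON points stand apart.

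The study asked how SHR differ from WKY within each nucleus. In the PVN, 0 of 32 members were higher in SHR and 0 were lower by limma, where 1.14% of all probe sets tested were called higher in SHR and 1.22% were called higher in WKY. At an unadjusted p under 0.05, 0 members were higher and 2 were lower, Trpc1 with a difference of -0.29 and Cacna2d1 with -0.21, against 5.38% and 8.13% of all probe sets. The methods' t-test, with Benjamini-Hochberg adjustment, also called 0. The median difference of the members was -0.04, as it was over all probe sets. The largest PVN difference in either direction was -0.30, for Trpv2, and the 95% interval of every one of the 32 differences lay within a 2-fold change.

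In the SON, 0 of 30 members were higher in SHR, where 1.29% of all probe sets were called higher, and 1 of 30 (3.33%) was lower, near the 2.33% of all probe sets called higher in WKY. The gene was Cacng3, which encodes a transmembrane protein that carries AMPA-type glutamate receptors to the synapse and is named a calcium channel subunit by its sequence. Its log2 signal was 6.73, 6.84, 6.64, 6.83 and 6.89 on the WKY SON arrays. On the SHR SON arrays it was 6.40, 6.15, 6.37 and 6.39. All 4 SHR arrays lay under the lowest WKY array. The means were 6.79 ± 0.10 (SD, n = 5) and 6.33 ± 0.12 (SD, n = 4), a difference of -0.46 ± 0.10 (SE), or 1.37-fold lower in SHR, with an adjusted p of 0.0243 in limma. The call was lost without SON SHR array 2 or 3 or SON WKY array 2 or 4, with differences between -0.47 and -0.40 and adjusted p between 0.0538 and 0.0775. It was also lost with the replicate block (-0.43, adjusted p = 0.108) and the methods' t-test (adjusted p = 0.0565). In the PVN the Cacng3 signal was 6.0, 5.74, 6.16, 6.21 and 6.03 in WKY and 5.57, 5.88, 5.80, 5.95 and 5.90 in SHR. Those groups overlapped, and the PVN difference of -0.21 was not called (adjusted p = 0.469).

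At an unadjusted p under 0.05 in the SON, 2 members were higher in SHR and 8 were lower, against 6.47% and 12.9% of all probe sets. The higher values were those of Scn7a (0.64, adjusted p = 0.0626) and Trpm3 (0.33, adjusted p = 0.202). Scn7a encodes a channel that opens to extracellular sodium rather than to voltage, and its 4 SHR SON arrays all lay above its 5 WKY SON arrays. It entered the SON fit only through its SHR mean of 5.74, as its WKY mean of 5.10 lay under the threshold. Entry by that route favours a difference. Besides Cacng3, the lower values were those of Trpv2, Cacng2, Scn2b, Cacnb3, Trpc4ap, Scn2a and Asic4, between -0.69 and -0.23. Cacng2 encodes stargazin, a relative of Cacng3 that also serves AMPA receptors, and its difference was -0.41 (adjusted p = 0.0733), while a second Cacng2 probe set gave -0.01.

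Trpv2, a cation channel with a wide tissue distribution, had the largest SON strain difference in size. Its signal was 5.89, 6.18, 6.60, 6.32 and 6.43 in WKY SON and 5.36, 6.22, 5.48 and 5.31 in SHR SON. SHR array 2 lay among the WKY values and the other SHR arrays lay under all of them. The difference was -0.69 ± 0.19 (SE), with an adjusted p of 0.074 in limma. Trpv2 was called when SON SHR array 2 was left out, with no call for Cacng3 in that setting. Over the 30 members tested in the SON the median difference was -0.08, against -0.04 over all probe sets, and for 28 of them the 95% interval excluded a 2-fold change.

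**Figure D2:**
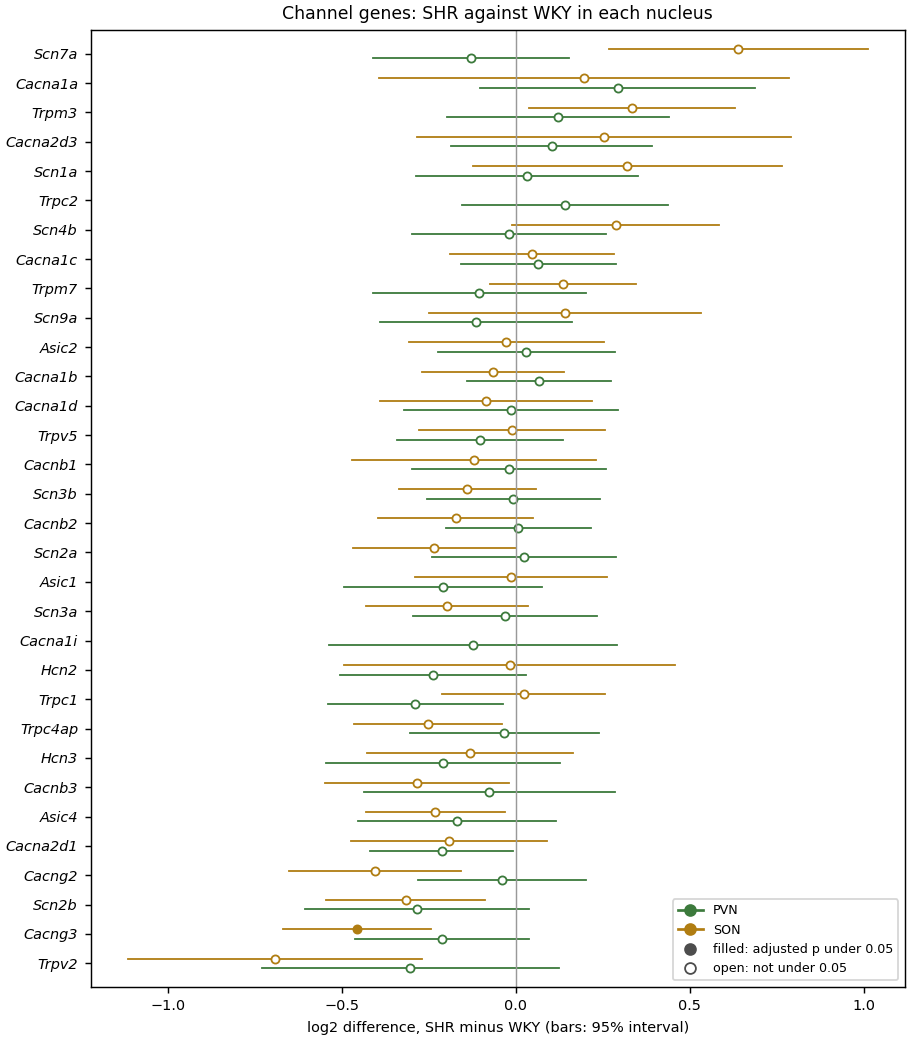
Difference SHR minus WKY in log2 signal (horizontal axis) for each tested channel gene in the PVN (green) and the SON (ochre), with 95% intervals from limma; filled points have an adjusted p under 0.05. The only filled point is Cacng3 in the SON at -0.46, and the SON points of Scn7a at 0.64 and Trpv2 at -0.69 lie farthest from 0.

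The interaction compares the strain difference in the SON with that in the PVN. By limma 0 of 32 members were called, where 0.0117% of all probe sets were called with the more positive difference in the SON and 0.0702% with the more negative one. At an unadjusted p under 0.05 there was 1 member in each direction. These were Scn7a, with 0.77 ± 0.22 (SE, adjusted p = 0.382), and Cacng2, with -0.37 ± 0.16 (SE, adjusted p = 0.673). A strain difference that was specific to a nucleus was thus not called for any member, and for 29 of the 32 the 95% interval excluded a 2-fold change.

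Between the nuclei of WKY rats, 2 of 32 members (6.25%) were higher in the SON, where 13.2% of all probe sets were called, and 11 (34.4%) were higher in the PVN, where 13.7% of all were called. In SHR, 3 members (9.38%) were higher in the SON against 13.7% of all, and 11 (34.4%) were higher in the PVN against 15.7% of all. The member shares count 1 probe set per gene, the brightest, and the whole-array shares count every probe set. The median member difference, SON minus PVN, was -0.14 in WKY and -0.24 in SHR, while over all probe sets it was -0.01 and -0.02. The arrays of WKY and SHR are separate, but both comparisons use the spread estimated in 1 fit. There were 8 genes called in both strains, 61.5% of the calls in WKY and 57.1% of those in SHR, and all 8 had the same direction. Over all probe sets, the calls in both strains were 70.1% of those in WKY and 64.1% of those in SHR, and 99.8% had the same direction. Asic2, Cacna1c, Cacna2d3, Scn3b, Scn7a and Scn9a were higher in the PVN in both strains, and Cacna2d1 and Cacng3 were higher in the SON in both. The sign was the same in both strains for 26 of the 32 genes (81.2%, against 79.2% of all probe sets), negative for 21 and positive for 5. In SHR the methods' t-test did not call Scn9a, Cacna2d3 or Cacna2d1, and the replicate block did not call Scn9a. No interaction was called, so a call in 1 strain only does not show that the strains differ.

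**Figure D3:**
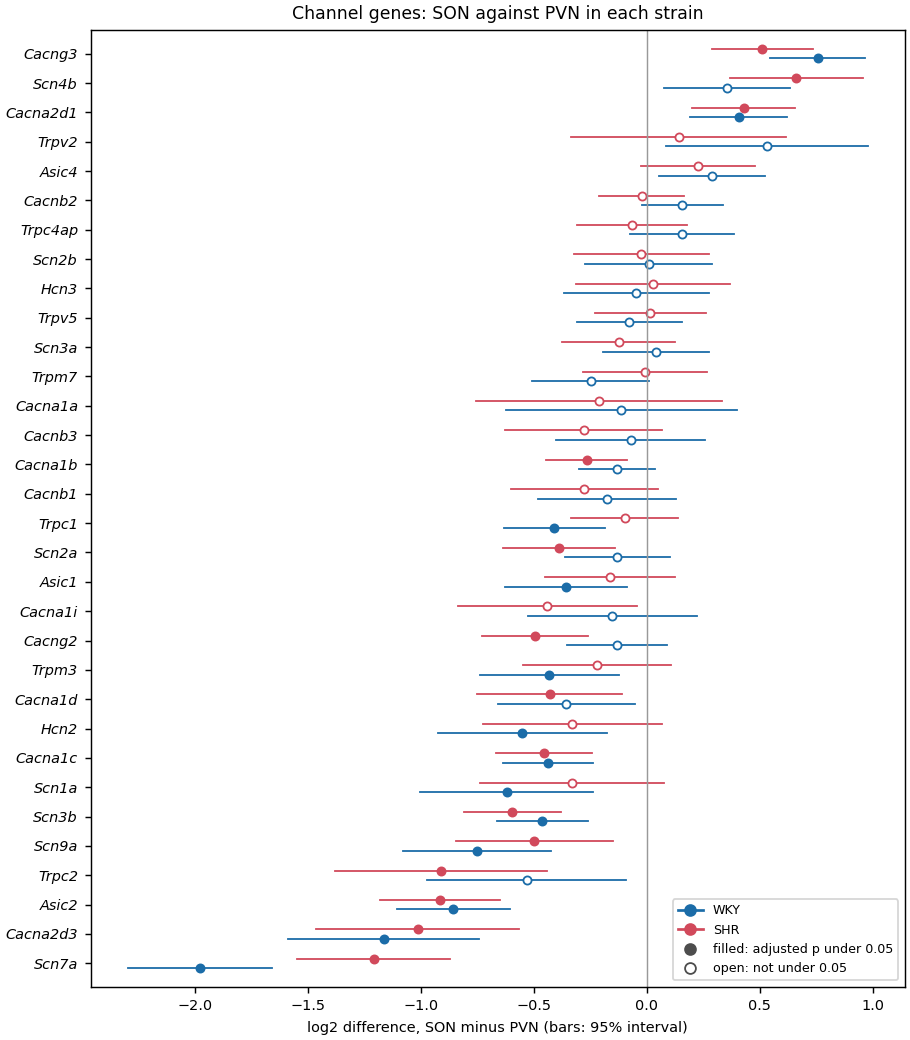
Difference SON minus PVN in log2 signal (horizontal axis) for each of the 32 tested channel genes in WKY (blue) and SHR (red), with 95% intervals from limma; filled points have an adjusted p under 0.05. Scn7a lies at -1.98 in WKY and -1.21 in SHR at the bottom, and Cacng3, Scn4b and Cacna2d1 are the filled points to the right of 0.

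The sodium channel alpha subunits gave the largest difference. Of 9 such genes, 5 were tested, and 3 were lower in the SON in WKY and 3 in SHR. Over all probe sets, 13.7% were called lower in the SON of WKY and 15.7% in that of SHR. Scn7a stood first. Its signal was 6.98, 6.88, 7.06, 7.16 and 7.33 in WKY PVN and 6.99, 6.89, 7.28, 6.58 and 7.03 in SHR PVN. SON signals were 5.04, 5.40, 5.32, 4.86 and 4.89 in WKY and 5.81, 6.20, 5.50 and 5.45 in SHR. Every PVN array lay above every SON array. The difference was -1.98 ± 0.15 (SE) in WKY, or 3.94-fold lower in the SON (adjusted p = 5.1e-09), and -1.21 ± 0.16 (SE) in SHR, or 2.31-fold lower (adjusted p = 1.04e-05). The mean of Scn7a in WKY SON lay under the threshold of the filter, at 5.10 ± 0.25 (SD, n = 5).

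Scn9a, a slowly inactivating channel best known from sensory neurones and also present in magnocellular cells, had means of 8.44 ± 0.13 in WKY PVN and 7.69 ± 0.30 in WKY SON (SD, n = 5 each). The 5 WKY SON arrays, from 7.36 to 8.05, lay under the WKY PVN arrays, from 8.23 to 8.57, and the difference was -0.75 (adjusted p = 0.0012). In SHR the PVN arrays ran from 8.06 to 8.62 and the SON arrays from 7.55 to 8.29, so they overlapped. The SHR difference was -0.50 (adjusted p = 0.0288), and its call was lost without PVN SHR array 3 or 5 or SON SHR array 1, 2 or 3, with differences from -0.49 to -0.40 and adjusted p from 0.0619 to 0.103. It was also lost with the replicate block (-0.44, adjusted p = 0.104), quantile normalisation (-0.47, adjusted p = 0.0639), values as deposited (-0.48, adjusted p = 0.0506), no filter (adjusted p = 0.062) and the methods' t-test (adjusted p = 0.147). Scn1a, a channel prominent in inhibitory neurones, was lower in the SON of WKY, differing by -0.62 (adjusted p = 0.0162). The methods' t-test gave an adjusted p of 0.0562. Without SON WKY array 5 its difference was -0.50 (adjusted p = 0.0524), and in SHR it was -0.33 (adjusted p = 0.212). Scn2a, a main channel of central axons, was lower in the SON of SHR, differing by -0.39 (adjusted p = 0.0177), with all 4 SON arrays (8.02 to 8.13) under the PVN arrays (8.2 to 8.68), but the methods' t-test did not call it (adjusted p = 0.0736). In WKY its difference was -0.13 (adjusted p = 0.416). Scn3a, the alpha subunit best known from the developing brain, showed 0.04 in WKY and -0.13 in SHR, neither called.

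The 5 tested alpha subunits are also the 5 that lie together on rat chromosome 3, in the order Scn3a, Scn2a, Scn1a, Scn9a and Scn7a. RefSeq places no other protein-coding gene between Scn1a, Scn9a and Scn7a or between Scn3a and Scn2a. Along that order the difference in WKY was 0.04, -0.13, -0.62, -0.75 and -1.98, and in SHR it was -0.13, -0.39, -0.33, -0.50 and -1.21. These are 5 neighbouring genes, and no test was made of the order. The other alpha subunits were dim, with group means from 2.31 to 3.15 for Scn8a and from 4.76 to 5.13 for Scn10a, and Scn4a and Scn11a lay near the floor.

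All 3 beta subunits were tested. Scn3b, which binds sodium channel alpha subunits and alters their inactivation, was lower in the SON in both strains. Its signal was 9.62, 9.74, 9.86, 9.84 and 9.82 in WKY PVN and 10.1, 9.85, 9.69, 9.57 and 9.64 in SHR PVN. SON signals were 9.31, 9.41, 9.29, 9.34 and 9.21 in WKY and 9.25, 9.23, 9.14 and 9.07 in SHR. No SON array reached the lowest PVN array. The difference was -0.46 ± 0.10 in WKY (SE, adjusted p = 0.00122) and -0.60 ± 0.10 in SHR (SE, adjusted p = 0.000169), and a second Scn3b probe set gave -0.56 and -0.55, both called.

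Scn4b, the beta subunit linked to resurgent sodium current, pointed the other way. Its signal was 5.88, 5.56, 5.75, 5.56 and 5.40 in WKY PVN and 5.81, 5.20, 5.65, 5.72 and 5.68 in SHR PVN. In the SON it was 5.88, 6.08, 6.12, 5.73 and 6.12 in WKY and 6.58, 6.17, 6.37 and 5.98 in SHR. All SHR SON arrays lay above all SHR PVN arrays, while the WKY groups overlapped. Scn4b was higher in the SON of SHR by 0.66 ± 0.14 (SE, adjusted p = 0.00137), and in WKY the difference was 0.35 (adjusted p = 0.0543). Scn2b, which links alpha subunits to adhesion proteins, showed 0.01 in WKY and -0.02 in SHR.

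Of the 10 calcium channel alpha1 genes, 5 were tested between nuclei, 0 were higher in the SON in either strain, and 1 in WKY and 3 in SHR were lower. Cacna1c, the widespread L-type channel, was called in both strains. Its signal was 6.28, 6.21, 6.46, 6.49 and 6.51 in WKY PVN and 6.36, 6.44, 6.60, 6.51 and 6.36 in SHR PVN. In the SON it was 6.13, 6.0, 5.91, 5.99 and 5.72 in WKY and 6.05, 5.82, 6.03 and 6.09 in SHR. The nuclei did not overlap in either strain. The difference was -0.44 ± 0.10 in WKY (SE, adjusted p = 0.0018) and -0.46 ± 0.10 in SHR (SE, adjusted p = 0.00196).

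Cacna1d, an L-type channel that opens at more negative voltage, was lower in the SON of SHR, differing by -0.43 (adjusted p = 0.0405), and in WKY the difference was -0.36 (adjusted p = 0.0744). The SHR call was lost without PVN SHR array 2, 3 or 5 or SON SHR array 1, 2 or 3, with differences from -0.42 to -0.34 and adjusted p from 0.0787 to 0.138. It was also lost with the replicate block (-0.40, adjusted p = 0.0683), a fit of the SHR arrays alone (adjusted p = 0.105), values as deposited (adjusted p = 0.0869), no filter (adjusted p = 0.079) and the methods' t-test (adjusted p = 0.21). Cacna1b, the N-type channel of nerve terminals, was lower in the SON of SHR, differing by -0.27 (adjusted p = 0.0233). That call was lost without PVN SHR array 2 or SON SHR array 1 or 2, with differences from -0.25 to -0.23 and adjusted p from 0.0598 to 0.0778. It was also lost with the replicate block (-0.30, adjusted p = 0.0527), a fit of the SHR arrays alone (adjusted p = 0.1) and quantile normalisation (-0.23, adjusted p = 0.0502). Cacna1a, the P/Q-type channel, and Cacna1i, a low-voltage T-type channel, were not called. Cacna1e, the R-type channel, and the T-type genes Cacna1g and Cacna1h were too dim to be tested, with group means from 2.5 to 3.91 for Cacna1e, from 2.5 to 3.27 for Cacna1g and from 4.39 to 4.94 for Cacna1h. Cacna1f and Cacna1s lay near the floor.

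Alpha2delta subunits raise the number of calcium channels at the membrane, and both genes measured here were called in both strains, in opposite directions. Cacna2d3 had signals of 7.29, 7.26, 7.28, 7.14 and 6.94 in WKY PVN and 7.71, 7.33, 7.32, 7.11 and 6.95 in SHR PVN. In the SON it had 6.26, 6.63, 6.12, 5.46 and 5.6 in WKY and 6.15, 6.89, 6.0 and 6.04 in SHR. The nuclei did not overlap, although SON SHR array 2 came within a short distance of the PVN arrays. The difference was -1.17 ± 0.20 in WKY, or 2.24-fold lower in the SON (SE, adjusted p = 0.000206), and -1.02 ± 0.22 in SHR, or 2.02-fold lower (SE, adjusted p = 0.00128). The methods' t-test did not call the SHR difference (adjusted p = 0.0516).

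Cacna2d1, the binding site of gabapentin, had signals of 8.37, 8.23, 8.20, 8.30 and 8.38 in WKY PVN and 8.03, 8.19, 8.08, 7.97 and 8.14 in SHR PVN. SON arrays gave 8.77, 8.60, 8.54, 9.03 and 8.57 in WKY and 8.27, 8.46, 8.62 and 8.69 in SHR. Every SON array lay above every PVN array of its strain. The difference was 0.41 ± 0.10 in WKY (SE, adjusted p = 0.00576) and 0.43 ± 0.11 in SHR (SE, adjusted p = 0.00558), which the methods' t-test did not call (adjusted p = 0.0668). The cytoplasmic beta subunits, which carry alpha1 subunits to the membrane, had 3 of 4 genes tested and 0 called in either strain by limma. Their differences ran from -0.17 to 0.16 in WKY and from -0.28 to -0.02 in SHR.

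Of the 8 gamma subunit genes only Cacng2 and Cacng3 were bright enough to test. Cacng3, whose array values are given above, was higher in the SON in both strains, by 0.76 ± 0.10 in WKY (SE, 1.69-fold, adjusted p = 1.08e-05) and by 0.51 ± 0.11 in SHR (SE, 1.43-fold, adjusted p = 0.00121). In neither strain did its nuclei overlap. Cacng2 had signals of 7.62, 7.50, 7.58, 7.28 and 7.31 in SHR PVN and 6.91, 7.15, 6.79 and 7.01 in SHR SON. In WKY it had 7.58, 7.25, 7.63, 7.60 and 7.45 in the PVN and 7.51, 7.42, 7.13, 7.47 and 7.31 in the SON. The SHR nuclei did not overlap and the WKY nuclei did. The difference in SHR was -0.50 ± 0.11 (SE, adjusted p = 0.00227) and in WKY -0.13 (adjusted p = 0.386), but the second Cacng2 probe set gave 0.08 and 0.21, neither called, so the probe sets of this gene disagree.

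**Figure D4:**
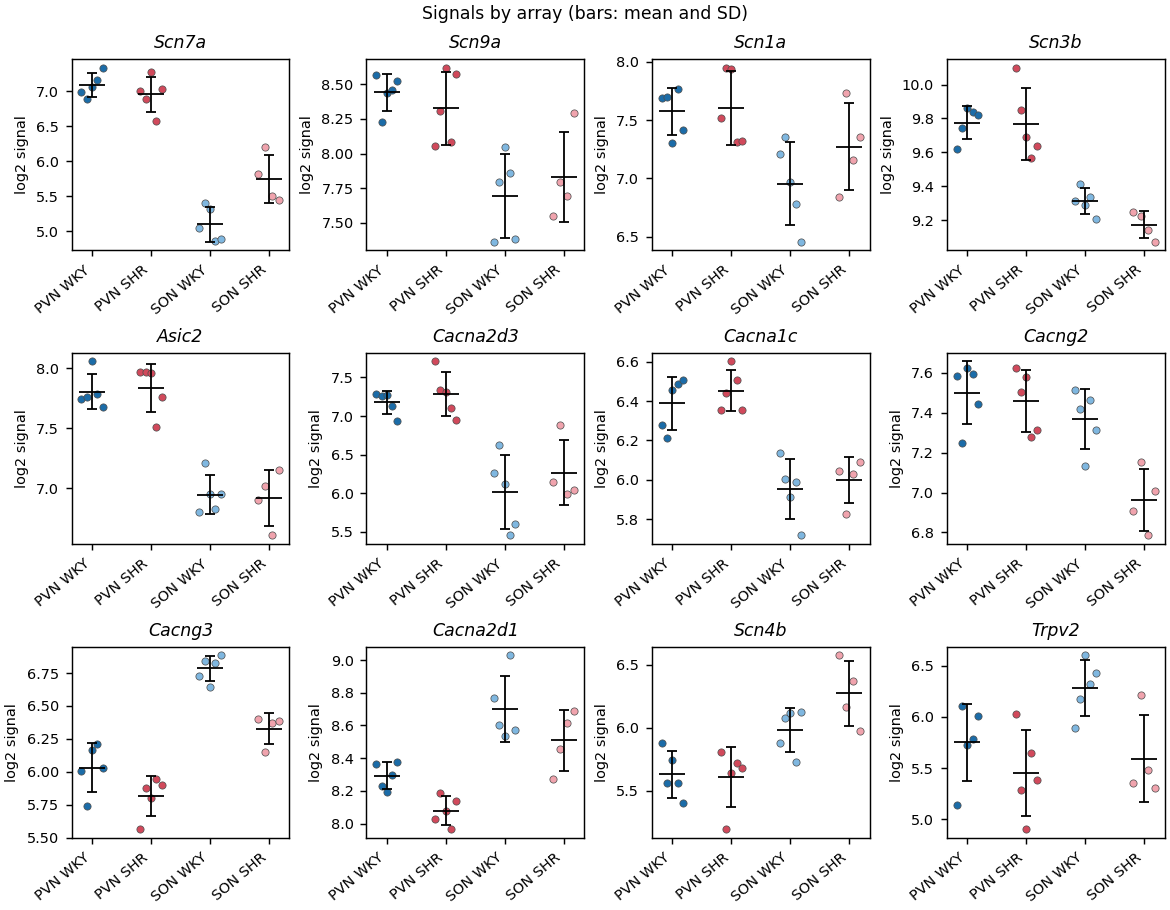
Log2 signal (vertical axis, scaled to each gene) on every array for 12 channel genes in PVN WKY, PVN SHR, SON WKY and SON SHR; points are arrays and bars are the mean and SD. In Scn7a, Scn3b, Asic2, Cacna2d3 and Cacna1c the SON points lie under the PVN points, and in Cacng3 and Cacna2d1 they lie above them within each strain.

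Among pacemaker channels, Hcn2 and Hcn3 were tested and Hcn4, the main sinoatrial form, was at the floor throughout. Hcn2 had signals of 7.22, 7.25, 7.36, 6.80 and 6.84 in WKY PVN and 6.92, 6.82, 6.98, 6.69 and 6.87 in SHR PVN. SON arrays gave 6.30, 6.32, 6.46, 6.70 and 6.92 in WKY and 5.75, 6.77, 6.69 and 6.89 in SHR. The nuclei overlapped in both strains. Hcn2 was lower in the SON of WKY, differing by -0.55 ± 0.18 (SE, adjusted p = 0.0271), and in SHR the difference was -0.33 (adjusted p = 0.203). The WKY call was lost without PVN WKY array 1, 2 or 3 or SON WKY array 1, 2 or 3, with differences from -0.53 to -0.48 and adjusted p from 0.0502 to 0.072. The replicate block (adjusted p = 0.0626) and no filter (adjusted p = 0.0625) also ended the call. Hcn3 showed -0.05 in WKY and 0.03 in SHR, neither called.

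TRP channels were mostly dim. Of 5 Trpv genes 2 were tested, of 5 Trpm genes 2 and of 5 Trpc genes 2, besides Trpc4ap. Trpv1, a variant of which is needed for the osmotic response of magnocellular neurones, had group means of 3.61 ± 0.61 in WKY PVN, 3.63 ± 0.77 in SHR PVN, 3.99 ± 0.48 in WKY SON and 3.92 ± 0.25 in SHR SON (SD), all under the filter threshold. Its other probe sets lay nearer the floor. Trpv4, another osmotically gated channel, was at the floor on every WKY array and every PVN array, and 1 SHR SON array stood at 2.04. Trpm4, a calcium-activated cation channel, had group means from 3.71 to 4.57, and Trpc5, a channel of the classical TRP family, from 2.14 to 2.36. The arrays therefore give no comparison for these genes. Trpv2 showed 0.53 between SON and PVN in WKY (adjusted p = 0.0731) and 0.14 in SHR, and Trpv5, an epithelial calcium channel, showed -0.08 and 0.01. A second Trpv5 probe set lay near the floor, with group means from 2.04 to 2.49.

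Trpm3, a channel opened by heat and by pregnenolone sulphate, had signals of 6.85, 6.82, 6.54, 6.92 and 6.66 in WKY PVN and 6.54, 6.55, 6.26, 6.06 and 6.21 in WKY SON. The highest SON array reached the lowest PVN array. In SHR it had 7.34, 6.90, 7.06, 6.62 and 6.48 in the PVN and 6.97, 6.62, 6.57 and 6.47 in the SON. It was lower in the SON of WKY, differing by -0.43 ± 0.15 (SE, adjusted p = 0.0347), and in SHR the difference was -0.22 (adjusted p = 0.312). The WKY call was lost without PVN WKY array 1, 2 or 4 or SON WKY array 3, 4 or 5, with differences from -0.42 to -0.37 and adjusted p from 0.0622 to 0.0946. With no filter its adjusted p was 0.0687. Trpm7, a channel joined to a kinase and involved in magnesium balance, showed -0.25 in WKY and -0.01 in SHR, neither called.

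Trpc1, a subunit of mixed TRP channels, had signals of 6.71, 7.27, 7.13, 6.97 and 6.93 in WKY PVN and 6.50, 6.70, 6.67, 6.54 and 6.56 in WKY SON. All WKY SON arrays lay under the WKY PVN arrays. In SHR it had 6.66, 6.72, 6.55, 6.84 and 6.80 in the PVN and 6.65, 6.36, 6.64 and 6.81 in the SON, which overlapped. The difference was -0.41 ± 0.11 in WKY (SE, adjusted p = 0.00736) and -0.10 in SHR (adjusted p = 0.554). Trpc2, a pheromone-transducing channel of the rodent vomeronasal organ, was called in SHR only. It had 5.87, 5.55, 5.20, 5.22 and 5.46 in SHR PVN and 4.74, 5.34, 4.48 and 3.64 in SHR SON, where SON array 2 lay among the PVN arrays. In WKY it had 5.20, 5.15, 5.61, 5.42 and 5.22 in the PVN and 4.98, 4.69, 4.65, 4.92 and 4.69 in the SON. The difference was -0.91 ± 0.22 in SHR (SE, adjusted p = 0.00417) and -0.53 in WKY (adjusted p = 0.0676). Its SON means lay under the filter threshold, and with log2(value + 16) in place of the floor the SHR difference was -0.58. The methods' t-test did not call it (adjusted p = 0.194). A second Trpc2 probe set was too dim to be tested, and its nuclei overlapped in both strains. Its means were 4.95 in SHR PVN and 4.88 in SHR SON, and 4.97 in WKY PVN and 4.31 in WKY SON.

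Acid-sensing channels are sodium channels opened by protons. Asic2, a subunit of such channels that is also expressed in baroreceptor neurones, was lower in the SON in both strains. Its signal was 7.75, 7.76, 8.06, 7.78 and 7.67 in WKY PVN and 7.97, 7.97, 7.96, 7.51 and 7.76 in SHR PVN. In the SON it was 6.80, 7.21, 6.95, 6.83 and 6.95 in WKY and 6.90, 7.02, 6.61 and 7.15 in SHR. No SON array reached the lowest PVN array. The difference was -0.86 ± 0.12 in WKY, or 1.81-fold lower (SE, adjusted p = 1.74e-05), and -0.92 ± 0.13 in SHR, or 1.89-fold lower (SE, adjusted p = 1.49e-05). A second Asic2 probe set gave -1.09 and -1.2, both called.

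Asic1, the main proton-gated subunit of central neurones, was lower in the SON of WKY, differing by -0.36 (adjusted p = 0.046), and the difference in SHR was -0.16 (adjusted p = 0.401). The first call was lost when any of 13 arrays was left out (PVN WKY array 1, 2, 3 or 4, PVN SHR array 2 or 3, SON WKY array 3, 4 or 5, or any SON SHR array), with differences from -0.38 to -0.27 and adjusted p up to 0.129. It was also lost with no filter (adjusted p = 0.0786), in a fit of the WKY arrays alone (adjusted p = 0.0551) and with the methods' t-test (adjusted p = 0.107). A second Asic1 probe set, however, was lower in the SON in both strains, differing by -0.52 in WKY (adjusted p = 0.00187) and -0.55 in SHR (adjusted p = 0.00185). The remaining Asic1 probe sets were too dim to be tested. Their SHR means were 5.00 and 3.77 in the PVN and 5.23 and 4.18 in the SON. In WKY they were 5.08 and 4.15 in the PVN and 4.77 and 3.51 in the SON. Asic4, which forms no proton-gated channel by itself, showed 0.29 in WKY (adjusted p = 0.0648) and 0.23 in SHR (adjusted p = 0.166). Asic3 and Asic5 lay near the floor.

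Other sodium, calcium and mechanically gated channels and the partners of these channels were taken from a list of 70 genes, of which 60 were on the array. Between strains 0 of 39 tested were called in the PVN and 2 of 38 in the SON, both lower in SHR, where 2.33% of all probe sets were called lower. These were Gem, a small GTPase that restrains calcium channels (-0.62, adjusted p = 0.0395), and Stac2, an adaptor of L-type channels (-0.50, adjusted p = 0.0172). Between nuclei 41 were tested, 6 of them higher and 13 lower in the SON of WKY, and 1 higher and 17 lower in the SON of SHR. The shares over the whole array were 13.2% higher and 13.7% lower in the SON of WKY, and 13.7% and 15.7% in that of SHR. Fgf13, an intracellular protein that binds sodium channels and microtubules, was lower, differing by -1.57 in WKY (adjusted p = 2.2e-07) and -1.53 in SHR (adjusted p = 6.74e-07). Its relative Fgf12 was lower, differing by -0.61 and -0.59. Nedd4l, a ubiquitin ligase that removes sodium channels from the membrane, was lower, differing by -1.09 in WKY and -1.27 in SHR, and its SON means lay under the filter threshold.

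Nalf1 and Nalf2, auxiliary subunits of the sodium leak channel, were lower in the SON of both strains, with differences of -0.72 and -1.11 for Nalf1 and of -0.98 and -1.17 for Nalf2, WKY first. The leak channel itself, Nalcn, showed -0.16 in WKY and was lower, differing by -0.29 in SHR, and its scaffold Unc80 was higher by 0.53 in the SON of WKY. The plasma membrane calcium pumps Atp2b1, Atp2b2 and Atp2b3 were lower in the SON in both strains, differing by -0.55, -0.50 and -0.78 in WKY, and so was the sodium-calcium exchanger Slc8a1 (-0.45 in WKY and -0.33 in SHR). Ryr2, a calcium release channel of the endoplasmic reticulum, was lower in both strains, differing by -0.56 and -0.52, and Ryr3 was lower, differing by -0.96 in WKY. Rimbp2, which ties calcium channels to release sites, was lower, differing by -0.49 and -0.54. Stac, another L-type adaptor, was higher in the SON by 0.71 in both strains.

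The remaining calls of the list fell in 1 strain each. In WKY, Stim2 (-0.32) was lower in the SON, and Orai1 (0.42), Tpcn2 (1.05), Piezo1 (0.60) and Stac2 (0.50) were higher. Stim2 senses calcium stores, Orai1 is the store-operated pore, Tpcn2 is a lysosomal cation channel and Piezo1 is a mechanically gated channel. In SHR, Orai2 (-0.69), Orai3 (-0.47), Tmem63c (-0.56), Ank3 (-0.38) and Rims2 (-0.43) were lower in the SON. Orai2 and Orai3 are store-operated pores, Ank3 anchors sodium channels at the axon initial segment and Rims2 holds calcium channels at release sites. The interaction called 0 of the 41.

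Markers of other cell types were also called in these comparisons. In bulk RNA, fewer cells of a type cannot be told apart from less RNA per cell. The parvocellular neurone genes Crh, Trh, Sst, Penk and Nts were all 5 lower in the SON in both strains, with median differences of -3.6 and -3.88. Their mean log2 signal ranged from 9.42 to 9.77 in WKY PVN, from 9.12 to 9.54 in SHR PVN, from 6.17 to 6.9 in WKY SON and from 5.92 to 6.35 in SHR SON. Of 15 general neurone genes, 3 were higher and 3 lower in the SON of WKY, and 1 was higher and 3 lower in SHR. Their mean signal ranged from 9.22 to 9.4 in WKY PVN, from 8.91 to 9.36 in SHR PVN, from 9.1 to 9.29 in WKY SON and from 8.85 to 9.08 in SHR SON, and the median differences were -0.01 and -0.08. Between strains, Thy1 was lower in SHR in each nucleus (-1.33 in the PVN and -1.61 in the SON). Over all probe sets, 1.22% were called lower in SHR in the PVN and 2.33% in the SON. The median strain difference of the list was -0.19 in the PVN and -0.23 in the SON, against -0.04 over all probe sets in each. Every SHR SON array had a lower list mean than every WKY SON array, but the closest pair stood at 9.08 (SHR array 2) and 9.10 (WKY array 3). Thy1 is in that mean, at 7.34 to 8.14 in SHR SON and 9.26 to 9.64 in WKY SON, and the order of that pair depends on it.

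All 9 meningeal and fibroblast genes were higher in the SON in both strains, with medians of 3.06 in WKY and 3.31 in SHR. Only 2 of the 9 were bright enough for the PVN fit, against 9 for the SON fit. Most thus entered the fit of all 4 groups through the SON, which favours a difference. In the SON 3 of the 9 were higher in SHR than WKY, where 1.29% of all probe sets were called higher. Their mean signal ranged from 4.91 to 5.07 in WKY PVN, from 4.9 to 5.31 in SHR PVN, from 7.53 to 8.17 in WKY SON and from 7.97 to 9.27 in SHR SON. Of 6 mural genes tested, 3 were higher in the SON of WKY and 5 in SHR. The PVN fit held 3 mural genes and the SON fit 6, so entry through the SON also favours a difference here. Of 8 astrocyte genes tested, 4 were higher in the SON in each strain. For all these lists, the shares over all probe sets were 13.2% higher and 13.7% lower in the SON of WKY. In SHR they were 13.7% and 15.7%. Both GABA neurone genes tested, of 3 on the array, were lower in the SON, with medians of -1.44 and -1.23. Of 4 ependymal genes, 3 were lower and 1 was higher in the SON in each strain. Of 9 oligodendrocyte genes, 0 were higher and 1 was lower in the SON of WKY, and 5 were higher and 0 lower in SHR. Of 3 oligodendrocyte precursor genes tested, 2 were higher in the SON in each strain. Magnocellular genes, which include Avp and Oxt, were 3 higher and 1 lower of 8 in WKY and 2 higher and 2 lower in SHR. Between strains, the magnocellular gene Cartpt was lower in SHR SON (-0.52), and the ependymal genes Tekt1 (0.47) and Ak7 (0.48) were higher in SHR PVN. Over all probe sets, 2.33% were called lower in SHR SON and 1.14% higher in SHR PVN. The part of these cell types in the channel differences was not tested.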

How the data were processed

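RNA from both nuclei of both strains was amplified once, labelled with biotin and hybridised to Affymetrix rat expression arrays. The deposited values are intensities on a linear scale, which the authors made with the MAS5 software and scaled per array; their later GeneSpring normalisation and present calls were not used here. 19 arrays of 31099 probe sets were grouped by their labels. After 57 control probe sets were left out, each array was centred on its median because the deposited medians (35.9 to 46.5) were up to 0.37 apart in log2, floored at 3.76 and log2 transformed. Between 8.33% and 10.6% of probe sets lay at the floor, no pair of arrays held identical values (0 found), and no correlation between arrays exceeded 0.974. The lowest mean correlations with the own group were those of PVN SHR array 4 (0.947) and SON WKY array 3 (0.929). Symbols were those of the platform annotation, renewed by Entrez number for 20758 probe sets.

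Strains were compared in limma 3.58.1 (R 4.3.3; lmFit and eBayes) within each nucleus, with 16104 probe sets tested for the PVN and 16190 for the SON. Nuclei and the interaction came from 1 fit of all 4 groups, over 17095. The methods' t-test and 2-fold limit were alternatives, with others in normalisation, filter, floor, probe set, samples, replicate block and each array left out. The procedure was tested on simulated data. Members, lists and tests were chosen with earlier results of these data known. Named genes were those called between strains, the 8 largest calls per direction between nuclei, the brightest of each family and channels known from these neurones; Cacna1b, Cacna1d, Scn9a and others beyond these were named after their values were seen. Values per array were given for strain calls, for the largest call of each family per direction, and for Trpv2, chosen after its values were seen. Probe sets ending in _a_at or _s_at (9 of the 60 standing for members) can bind several transcripts. Plots used matplotlib 3.10.9 (Python 3.11.15).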

Additional observations from a re-analysis of the deposited data

Results flagged for a closer look

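Over the 32 tested members, 128 groups of 4 or 5 arrays were examined for an array far from the others of its group, and 6 had one. Chance gives about 1 in 20 groups. Asic2 stood at 8.06 on PVN WKY array 3, with the next array at 7.78. Cacna1i stood at 6.24 on the same array, with the next at 5.41. Trpv5 stood at 6.95 on SON WKY array 4, with the next at 6.6. Low values were those of Scn4b on PVN SHR array 2, at 5.2 with the next array at 5.65, and of Cacnb3 on SON SHR array 4, at 6.53 with the next at 6.91. Cacng3 on SON SHR array 2 lay at 6.15, with the next array at 6.37, and without that array its strain difference in the SON was -0.40 with no call.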

How the results depend on the processing

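The counts of called members were 0 (PVN strains), 1 (SON strains), 13 (nuclei in WKY), 14 (nuclei in SHR) and 0 (interaction). With the methods' t-test they were 0, 0, 13 and 8, and that test was not run for the interaction. With a 2-fold limit they were 0, 0, 2, 2 and 0. In 1 fit of all 4 groups the SON strain count was 3, with Cacng2 and Scn7a added. Without PVN SHR array 4 and SON WKY array 3, an alternative chosen after the data were seen, it was 2, with Cacng2 added. With each array left out in turn the counts ranged from 0 to 2 (SON strains), 10 to 15 (nuclei in WKY) and 11 to 15 (nuclei in SHR), and stayed at 0 for the PVN strains and the interaction. With the replicate number as a block the SON strain count was 0, with -0.43 for Cacng3, and the nucleus counts were 13 and 13. The labels do not say what a number marks, so same-numbered arrays were not taken as pairs. Their deviations correlated between -0.10 and 0.04 across strains and between -0.034 and -0.0008 across the nuclei of WKY. Across the nuclei of SHR they correlated between 0.02 and 0.11. Between PVN and SON of SHR, as a hint from the data, all 8 of the 8 arrays with a shared number correlated best with their own number, against 0 of 10 in WKY. No called difference changed sign under any alternative run. Quantile normalisation, values as deposited, both other filters, log2(value + 16) and the other choice of probe set kept all counts within 1.5 times. The Cacng3 strain difference ranged from -0.49 to -0.39 over 20 alternatives, with adjusted p from 0.0176 to 0.108, and kept its call in 13. The causes of these changes were not tested. Probe sets near the floor, among them Trpv4 and Hcn4, give no comparison.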
